A study of Drosophila melanogaster with 27 samples.

Results

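Tumour wing discs were compared with tumour leg discs of Drosophila melanogaster larvae by RNA sequencing, across every gene of the count table. The members were the 2 tumour wing and the 2 tumour leg libraries, 4 of the 27 libraries in the series, and all 15348 genes were taken. Imaginal discs are the larval epithelial sacs from which the adult wings, legs, eyes and antennae form. In the tumours the hh-Gal4 driver, which is active in the posterior part of each disc, drove UAS-scrib-RNAi against the polarity gene scrib. It also drove the activated Ras transgene UAS-Ras[v12], UAS-GFP and the hairpin UAS-luci-RNAi. In the controls hh-Gal4 drove UAS-GFP and UAS-luc-RNAi alone. All larvae were in the wandering stage of the last instar and were raised at 25 °C. In both tumour groups replicate 1 was dissected on day 9 and replicate 2 on day 11, and all control discs were dissected on day 5. Each library pooled the discs of 35 to 50 larvae from an independent dissection, so anterior and posterior cells were sequenced together. All 4 of these groups carried hh-Gal4 and UAS-GFP. Sex was not given, and the leg label did not separate the 3 pairs of legs.

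A wing disc forms a wing blade (the pouch), a hinge and a piece of the thoracic body wall (the notum), while a leg disc is divided along the proximodistal axis into coxa, femur, tibia and tarsus. The identity of each field is held by selector and patterning genes, mostly transcription factors. Vestigial (vg) and its partner Scalloped specify the wing, the Iroquois and Pax factors pattern the notum, and Distal-less (Dll), dachshund (dac), the Sp factors and disco organise the leg. In neoplastic discs the Jun kinase (JNK) and JAK/STAT pathways are known to be active, and the insulin-like peptide Ilp8 delays pupariation.

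The 4 tumour libraries held 12.1 to 14.1 M reads assigned to genes, and the 4 control wing and leg libraries 12.9 to 16.01 M. Lines aligned to several places made up 76.1% and 60.9% in tumour wing libraries (day 9 and day 11), 68.3% and 54.4% in tumour leg libraries, and 15.8% to 22.9% in control wing and leg libraries. They were left out. Replicates correlated at 0.985 in tumour wing and 0.99 in tumour leg discs on log2 CPM (CPM is a gene's count scaled to a common library total). The targeted gene scrib stood at 254 and 222 CPM in tumour wing and 270 and 254 CPM in tumour leg libraries, against 311 and 341 CPM in control wing and 361 and 380 CPM in control leg libraries. Ras85D stood at 1306 and 585 CPM in tumour wing and 1133 and 680 CPM in tumour leg libraries, against 286 to 302 CPM in control wing and 284 to 314 CPM in control leg libraries. Scrib and Ras85D did not pass between tumour wing and tumour leg discs (adjusted p = 0.76 and 0.983). In both tumour discs Ras85D was higher on day 9 than on day 11. In all pairs of values below, the first is replicate 1 and the second replicate 2.

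Of the notum genes tested 8 of 9 were higher in tumour wing discs, and of the proximodistal leg genes 11 of 15 were lower there. Vestigial, for example, was 8.09-fold higher and Lim1 9.69-fold lower in tumour wing than in tumour leg discs. Of 9814 genes tested, 239 (2.44%) passed an adjusted p of 0.05 in edgeR's quasi-likelihood test with Benjamini-Hochberg adjustment. Of these, 96 (0.978%) were higher and 143 (1.46%) lower in tumour wing discs, and 142 (1.45%) differed by at least 2-fold, 63 higher (0.642%) and 79 lower (0.805%). The median log2 difference over all tested genes was 0.0032. For all 239 the wing libraries did not overlap the leg libraries, which was so for 3144 (32%) of all genes tested, 1488 with wing above (15.2%) and 1656 with wing below (16.9%). The wing-leg difference was larger on day 11 than on day 9 for 83 of the 96 higher genes. Their log2 medians were 1.14 on day 9 and 1.57 on day 11. The difference was also larger in size for 102 of the 143 lower genes (medians of -1.02 and -1.18). This share was not computed over all tested genes, and the genes were called from these same libraries.

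Counts of calls moved with the model. Fits that leave out 1 tumour library, here and below, held no replicate block. They set a single day of 1 disc against both days of the other. A call lost there can thus reflect the day as well as the missing library, and these were not told apart. With dissection day as a replicate block, 692 genes passed, 271 higher and 421 lower, among them 233 of the 239. Without the day 11 tumour wing library 107 passed, and without the day 11 tumour leg library 115. With the 4 tumour libraries fitted alone 4 genes passed, 1 higher and 3 lower, among them 0 of the 9 notum genes and 1 of the 15 proximodistal leg genes. With these 4 libraries and the replicate block 801 passed, among them 7 notum genes and 14 proximodistal leg genes (2 higher and 12 lower). In whole discs, fewer cells of a type and less RNA per cell cannot be told apart.

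Of 12 tested wing selector and pouch genes, 4 were higher in tumour wing discs. Vestigial, the wing selector, stood at 67.2 and 76.5 CPM in tumour wing libraries and at 12.8 and 5.09 CPM in tumour leg libraries. The wing libraries lay far above the leg libraries, an 8.09-fold difference (log2 3.02 ± 0.52 SE, adjusted p = 0.00462). Control wing discs held 212 and 267 CPM of vg and control leg discs 9.54 and 22.3 CPM. The T-box gene bi, a target of Dpp in the wing, stood at 68.4 and 77.5 CPM in tumour wing and 22.8 and 19.6 CPM in tumour leg libraries (log2 1.79 ± 0.16, adjusted p = 2.23e-05). The spalt zinc finger genes salm (74.7 and 121 CPM in tumour wing, 26.5 and 17.2 CPM in tumour leg discs) and salr (184 and 271 CPM, and 63.0 and 27.6 CPM) differed by 2.17 ± 0.36 and 2.33 ± 0.40 on the log2 scale (adjusted p = 0.00368 and 0.0046). The 4 higher genes were vg, bi, salm and salr, while dve was lower and 7 did not pass, with a list median of 1.32. Without the day 11 tumour leg library, bi alone of these passed: vg then had an adjusted p of 0.0672 at a log2 difference of 2.51, salm 0.0695 at 1.91 and salr 0.0622 at 1.88.

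The POU genes nub and pdm2, which act in the wing pouch and hinge, did not pass although their libraries were apart. Nub stood at 92.6 and 163 CPM in tumour wing against 37.1 and 40.0 CPM in tumour leg libraries (log2 1.73 ± 0.53, adjusted p = 0.138). Pdm2 stood at 29.0 and 38.1 CPM against 4.50 and 1.38 CPM (3.52 ± 0.94, adjusted p = 0.0726), and it passed with the replicate block (3.70 ± 0.81, adjusted p = 0.0325), as did the nuclear receptor gene knrl (0.94 ± 0.16, adjusted p = 0.00932). With the block fj, a kinase gene of planar polarity in the same list, became lower in tumour wing discs (-0.65 ± 0.08, adjusted p = 0.00164). The homeobox gene dve was lower, at 18.8 and 25.1 CPM in tumour wing and 52.5 and 39.9 CPM in tumour leg libraries (-1.07 ± 0.26, adjusted p = 0.0407). Its call ended with the replicate block (adjusted p = 0.0723) and without any 1 of the 4 libraries (0.071 to 0.22). Along the hinge, the zinc finger gene zfh2 (807 and 658 CPM against 382 and 260 CPM, log2 1.19 ± 0.21, adjusted p = 0.00512) and the homeobox gene Dr (64.9 and 114 CPM against 25.6 and 15.4 CPM, 2.13 ± 0.35, adjusted p = 0.00334) were higher, 2 of 9 tested. Both calls ended without the day 11 tumour leg library (adjusted p = 0.0644 for zfh2 and 0.0622 for Dr), while hth, tsh and tio lay between -0.44 and 0.31 and did not pass.

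The notum list was the most uniform on the wing side, with 8 of 9 tested genes higher in tumour wing discs, none lower and a median of 2.01. They included the Iroquois homeobox genes ara, caup and mirr. Ara was at 83.8 and 107 CPM in tumour wing and 22.9 and 21 CPM in tumour leg libraries (log2 2.12 ± 0.17, adjusted p = 4.48e-06). Caup was at 109 and 144 CPM against 39.6 and 20.5 CPM (2.07 ± 0.26, adjusted p = 0.000455), and mirr at 198 and 238 CPM against 60.1 and 21.8 CPM (2.42 ± 0.38, adjusted p = 0.00238). The LIM homeobox gene tup, which marks the notum, stood at 26.8 and 31.5 CPM against 6.35 and 3.20 CPM, a 6.15-fold difference (2.62 ± 0.40, adjusted p = 0.00199). These 4 calls held without any 1 of the 4 libraries. The other 4 were the GATA gene pnr (2.01 ± 0.46, adjusted p = 0.0334), the Pax genes eyg (1.98 ± 0.34, adjusted p = 0.00443) and toe (1.79 ± 0.42, adjusted p = 0.0375), and the EGFR ligand gene vn (0.89 ± 0.19, adjusted p = 0.0213). Without the day 11 tumour leg library their adjusted p were 0.244, 0.071, 0.268 and 0.153, and 4 genes of the list passed. Without the day 9 tumour wing library 5 genes passed (adjusted p = 0.0786 for pnr, 0.14 for toe and 0.0939 for vn), and without the day 11 tumour wing library 5 (0.139, 0.0843 and 0.0754). Without the day 9 tumour leg library 7 passed, and pnr had 0.0875. Only ush did not pass with all libraries (0.44 ± 0.20, adjusted p = 0.385).

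Among the 15 genes with the largest positive differences were other factors as well. The POU gene vvl, which acts in wing veins and in the trachea, stood at 364 and 450 CPM in tumour wing and 63.4 and 38.6 CPM in tumour leg libraries (8.00-fold, log2 3.00 ± 0.23, adjusted p = 4.48e-06). The neighbouring genes mab-21 (309 and 351 CPM against 54.9 and 26.6 CPM, 3.02 ± 0.30, adjusted p = 4.75e-05) and CG4766 (92.0 and 73.2 CPM against 12.7 and 4.66 CPM, 3.27 ± 0.41, adjusted p = 0.000467) moved the same way. The aquaporin gene Drip stood at 128 and 116 CPM in tumour wing and 21.7 and 17.6 CPM in tumour leg libraries, against 44.9 and 27.4 CPM in control wing and 9.32 and 9.61 CPM in control leg libraries (tumour log2 difference 2.64 ± 0.37, adjusted p = 0.000969). A long noncoding RNA beside the Iroquois genes, lncRNA:CR32111, stood at 65.5 and 102 CPM against 18.4 and 9.61 CPM (2.58 ± 0.30, adjusted p = 0.000181). These 5 calls held without any 1 library.

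The largest positive value of the rule, for kn, rested on fewer libraries. Kn, a COE factor that patterns the veins in the middle of the wing, stood at 20.8 and 11.1 CPM in tumour wing and 1.41 and 0.0728 CPM in tumour leg libraries (4.46 ± 0.93, adjusted p = 0.0171). It had an adjusted p of 0.0589 without the day 9 tumour wing library and 0.099 without the day 11 tumour leg library. The remaining genes of that group were tey, Cpr49Ah, Ect3, cas, CG7173 and FBgn0040030, with log2 differences of 2.39 to 3.53 and adjusted p of 0.00855 to 0.0474. Each of them lost its call without at least 1 library, with adjusted p up to 0.0828 for Ect3 (without the day 9 tumour leg library), 0.0984 for Cpr49Ah (day 9 tumour leg), 0.122 for CG7173 (day 11 tumour leg), 0.181 for tey (day 11 tumour leg), 0.205 for FBgn0040030 (day 11 tumour wing) and 0.295 for cas (day 11 tumour leg).

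Most of the proximodistal leg genes were lower in tumour wing discs. Of 15 tested genes of the proximodistal leg list, 11 were lower (Dll, dac, Sp1, btd, al, Lim1, C15, B-H1, B-H2, bab2 and disco), 1 was higher (elB) and 3 did not pass, with a median of -1.72. With 1 library left out, 9 or 10 were lower. The LIM homeobox gene Lim1, which acts in the distal leg, stood at 6.88 and 5.62 CPM in tumour wing and 55.8 and 65.0 CPM in tumour leg libraries. It was 9.69-fold lower in tumour wing discs (log2 -3.28 ± 0.21, adjusted p = 5.72e-07). The zinc finger gene disco stood at 5.47 and 6.35 CPM in tumour wing and 42.0 and 63.2 CPM in tumour leg libraries (-3.15 ± 0.26, adjusted p = 7.49e-06). For both genes the wing and leg libraries were well apart.

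The paired Sp factor genes, which start leg formation upstream of Dll, were also low in tumour wing libraries. Sp1 stood at 20.6 and 24.2 CPM against 160 and 221 CPM in tumour leg libraries (-3.09 ± 0.35, adjusted p = 0.000159), and btd at 2.47 and 1.44 CPM against 16.1 and 27.9 CPM (-3.50 ± 0.37, adjusted p = 6.62e-05). Dll, the homeobox gene of the distal leg, stood at 38.9 and 31.0 CPM in tumour wing and 153 and 197 CPM in tumour leg libraries, 5.02-fold lower in tumour wing discs (-2.33 ± 0.31, adjusted p = 0.000648). Dac, which marks the middle of the leg, stood at 14 and 18.5 CPM against 87.4 and 140 CPM (-2.81 ± 0.39, adjusted p = 0.000969). Dll and dac were not at the floor in wing discs: control wing discs held 113 and 132 CPM of Dll and 51.5 and 69.1 CPM of dac.

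The homeobox genes of the tarsus followed with smaller differences. B-H1 stood at 1.85 and 2.52 CPM in tumour wing and 7.59 and 9.17 CPM in tumour leg libraries (-1.93 ± 0.24, adjusted p = 0.000321), and C15 at 4.50 and 6.27 CPM against 12.3 and 17 CPM (-1.44 ± 0.22, adjusted p = 0.00158). B-H2 (-1.72 ± 0.28, adjusted p = 0.00334) had an adjusted p of 0.0506 without the day 11 tumour leg library, and bab2 (-1.44 ± 0.23, adjusted p = 0.00272) had 0.0543 without the day 11 tumour wing library. Al differed by -0.89 ± 0.21 (adjusted p = 0.0316) and did not pass without any 1 of the 4 libraries (0.0531 to 0.187). The exception in the list, elB, a zinc finger gene of the noc family, stood at 107 and 128 CPM in tumour wing and 53.8 and 50.9 CPM in tumour leg libraries (1.16 ± 0.14, adjusted p = 0.000236).

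The T-box genes of the ventral leg, H15 and mid, were both lower in tumour wing discs. Mid stood at 17 and 16.1 CPM in tumour wing and 52.8 and 72.0 CPM in tumour leg libraries (-1.92 ± 0.20, adjusted p = 5.54e-05), and H15 at 2.38 and 1.59 CPM against 12.6 and 11.1 CPM (-2.59 ± 0.35, adjusted p = 0.000724). Of the 6 leg joint genes, TfAP-2, odd and sob were lower. TfAP-2, which is needed for leg growth and joints, stood at 22.9 and 12.5 CPM in tumour wing and 71.0 and 66.7 CPM in tumour leg libraries (-1.96 ± 0.27, adjusted p = 0.000739). Odd (-0.76 ± 0.18, adjusted p = 0.0379) and sob (-0.82 ± 0.19, adjusted p = 0.0316) had adjusted p of 0.195 and 0.147 without the day 9 tumour wing library, 0.0732 and 0.134 without the day 11 tumour wing library, and 0.326 and 0.321 without the day 11 tumour leg library.

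Forkhead, Sox and head genes were among the 15 most negative differences. The adjacent forkhead genes fd96Cb (11.3 and 12.4 CPM in tumour wing, 120 and 170 CPM in tumour leg libraries, -3.61 ± 0.26, adjusted p = 2.15e-06) and fd96Ca (2.21 and 1.87 CPM, and 16.7 and 27.7 CPM, -3.44 ± 0.34, adjusted p = 4.28e-05) lay together. Sox21b stood at 2.56 and 3.89 CPM against 21.8 and 41.3 CPM (-3.28 ± 0.31, adjusted p = 2.78e-05). The head homeobox gene oc stood at 8.56 and 3.61 CPM against 58.9 and 43.4 CPM (-3.09 ± 0.28, adjusted p = 2.15e-05). CG30427 (-3.35 ± 0.50, adjusted p = 0.00138) and FBgn0042650 (-3.21 ± 0.18, adjusted p = 2.44e-07) were of the same size. All of these held without any 1 library.

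Of the 7 tested Hox genes, the segment identity genes of the body axis, only Scr passed. Scr is the Hox gene of the first leg pair and stood at 10.6 and 2.81 CPM in tumour wing and 79.5 and 85.8 CPM in tumour leg libraries, 12.6-fold lower in tumour wing discs (-3.65 ± 0.71, adjusted p = 0.0117). Its adjusted p was 0.152 at -2.96 without the day 11 tumour wing library and 0.0549 at -3.59 without the day 11 tumour leg library. Antp, the Hox gene of the second thoracic segment, stood at 82.0 and 104 CPM in tumour wing and 151 and 191 CPM in tumour leg libraries and did not pass (-0.87 ± 0.87, adjusted p = 0.788). Ubx stood at 17.4 and 19.6 CPM against 21.6 and 15.5 CPM, so the groups overlapped.

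The largest of all negative differences among the named genes was that of CG17108, at 3.18 and 3.97 CPM in tumour wing and 47.5 and 79.8 CPM in tumour leg libraries (-4.15 ± 0.70, adjusted p = 0.00443). Control wing discs held 0.167 and 0 CPM and control leg discs 0.147 and 1.35 CPM. CG17108 had an adjusted p of 0.0604 without the day 11 tumour wing library. The other members of the group were hbt (0.0853) and the Pax gene Poxm (0.1), both without that library, and CG12607, which did not pass without any 1 of the 4 libraries (0.0506 to 0.199).

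**Figure D1:**
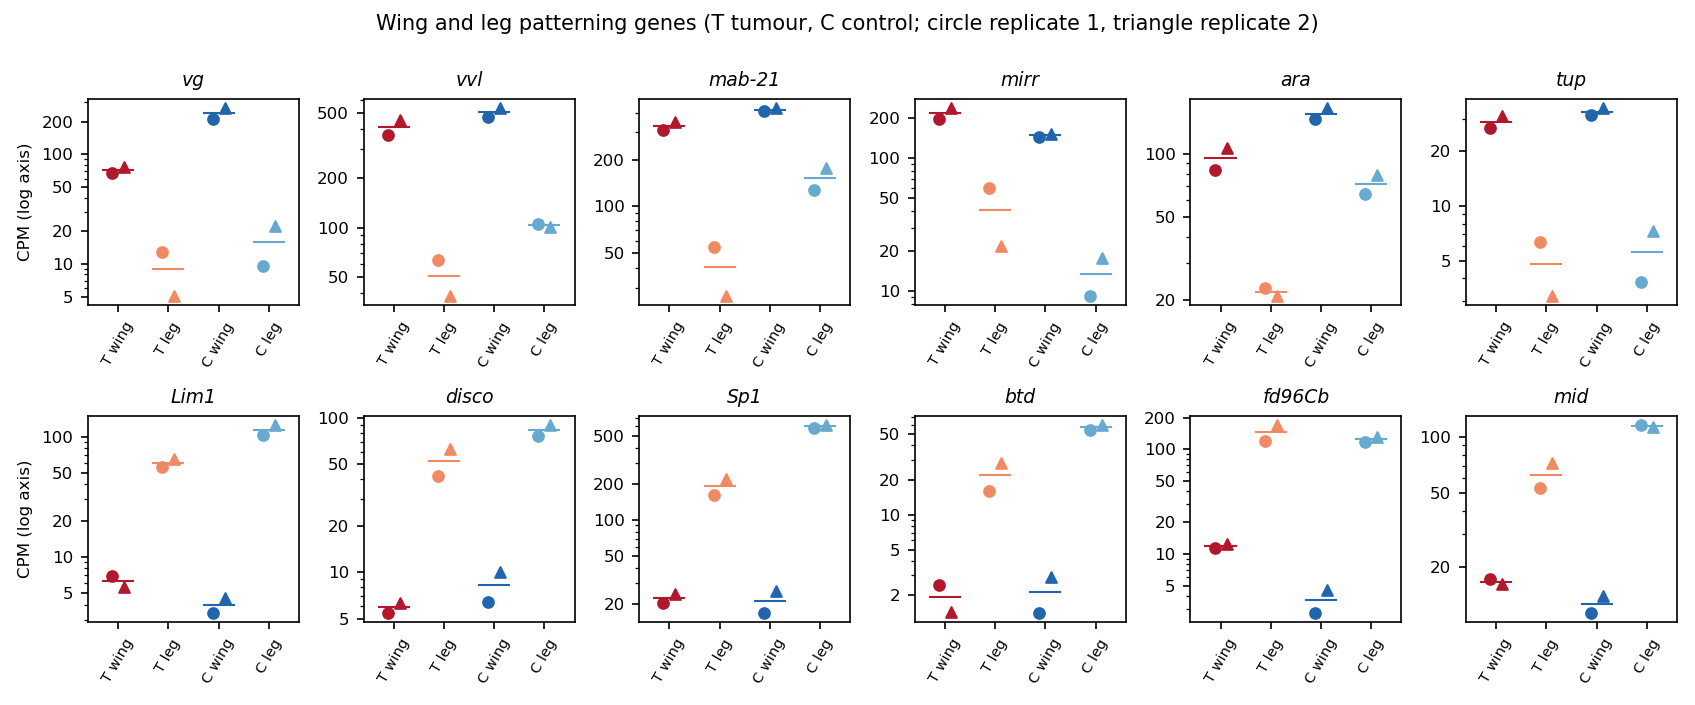
Levels of 6 genes of wing and notum patterning (upper row) and 6 of leg patterning (lower row) in CPM on log axes, for tumour wing, tumour leg, control wing and control leg discs from left to right. Points are single libraries (circle replicate 1, triangle replicate 2) and lines are group means. In every panel the tumour wing and tumour leg libraries are apart in the direction of the control libraries, as for Lim1 at 5.62 and 6.88 CPM in tumour wing and 55.8 and 65.0 CPM in tumour leg libraries.

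Other legs of the series allowed a look at tumour leg libraries whose levels did not enter the wing-leg difference. They did enter the shared estimate of the spread, and the 4 genes shown were called in that fit. These were 7 leg libraries of tumours titled with hairpins against sd, CG6272, tai or Stat92E. The labels gave day 8 for CG6272, Stat92E and sd replicate 1, day 10 for tai, and no day for sd replicate 2. Lim1 had a lowest, median and highest level there of 69.7, 112 and 133 CPM, against 5.62 and 6.88 CPM in tumour wing libraries. Disco had 49.9, 77.1 and 129 CPM in those legs, against 5.47 and 6.35 CPM in tumour wing libraries. Vvl had 57.8, 78.6 and 95.7 CPM, against 364 and 450 CPM, and vg had 2.61, 6.83 and 14.7 CPM, against 67.2 and 76.5 CPM. For these 4 genes, picked among those with large differences, no hairpin leg library reached the range of the tumour wing libraries. How many of the other called genes, or of all tested genes, did likewise was not counted.

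Some of the genes that differed lay next to each other. By the Release 6 annotation, 219 of the 239 called genes could be placed, and 33 of them (15.1%) had a next tested gene that was called in the same direction. Of the called higher genes 14.6% had a neighbour called higher, against 1.86% of all 9361 tested genes that could be placed, and of the called lower genes 15.4% had a neighbour called lower, against 2.75%. They formed 17 neighbour pairs. Among the pairs higher in tumour wing discs were salr with salm, toe with eyg, ara with caup and lncRNA:CR32111, and CG4766 with mab-21. Among the lower pairs were H15 with mid, sob with odd, gsb-n with gsb, Sox21b with D, fd96Ca with fd96Cb, btd with Sp1, and B-H2 with B-H1. The other pairs joined genes outside the lists, or a list member (Wnt10 or vvl) with such a gene, and 1 of these overlapped in the reference. Outside the lists, D, gsb and gsb-n were picked after their values were seen. Gsb-n stood at 0.529 and 0.216 CPM in tumour wing and 5.56 and 4.95 CPM in tumour leg libraries (-3.83 ± 0.48, adjusted p = 0.000412), and D at 4.76 and 7.79 CPM against 39.5 and 65.1 CPM (-3.05 ± 0.37, adjusted p = 0.000269). For pairs of related genes, reads that fit both copies leave the counts of each uncertain.

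Dpp and its target Dad were higher in tumour wing discs, while gbb (-0.12 ± 0.12), brk (-0.22 ± 0.16) and tkv (-0.39 ± 0.14) of the same pathway did not pass. Of 16 tested genes of the Hedgehog, Wnt and Dpp list, 4 were higher (dpp, Dad, Notum and Wnt10), 1 was lower (inv) and 11 did not pass. The BMP ligand gene dpp stood at 122 and 117 CPM in tumour wing and 74.0 and 55.7 CPM in tumour leg libraries (0.88 ± 0.15, adjusted p = 0.00513). It had an adjusted p of 0.0853 at 0.71 without the day 11 tumour leg library. Dad, an inhibitory Smad that Dpp induces, stood at 115 and 111 CPM against 69.5 and 65.9 CPM (0.74 ± 0.11, adjusted p = 0.00125), and this call held without any 1 library. In control discs the log2 wing-leg differences were 0.17 for dpp and 0.21 for Dad (adjusted p = 0.782 and 0.419), and the differences between tumours and controls did not pass for either gene (adjusted p = 0.119 and 0.0918).

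Notum, a deacylase that feeds back on Wnt ligands, stood at 20.7 and 32.4 CPM in tumour wing and 11.2 and 8.08 CPM in tumour leg libraries (1.46 ± 0.25, adjusted p = 0.00456). Its adjusted p was 0.0732 without the day 11 tumour wing and 0.0794 without the day 11 tumour leg library. Wnt10 stood at 1.15 and 2.38 CPM against 0.265 and 0.0728 CPM (3.36 ± 0.82, adjusted p = 0.0433), with 0.0744 without the day 9 tumour leg, 0.266 without the day 11 tumour wing and 0.296 without the day 11 tumour leg library. The posterior gene inv (83.7 and 91.1 CPM against 135 and 157 CPM, -0.74 ± 0.18, adjusted p = 0.0493) did not pass without any 1 library (0.0728 to 0.306). Hh itself stood at 73.3 and 80.5 CPM in tumour wing and 76.1 and 57.5 CPM in tumour leg libraries, which overlapped. With the replicate block 6 genes of the list were higher and 2 lower, en, ci and nkd having joined.

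Lists of pathways known from neoplastic discs gave 0 or 1 call each, beside 2.44% of all genes, so that counts this low say little about lists of this size. Of 12 tested JNK genes only cher passed, of 9 JAK/STAT genes none, and of 11 Hippo genes none, with medians of -0.06, 0.01 and -0.04. At an unadjusted p below 0.05 edgeR gave 1, 0 and 1 genes of these lists, and DESeq2 and limma-voom also gave 0 adjusted calls in the JAK/STAT and Hippo lists. The JNK phosphatase gene puc stood at 175 and 117 CPM in tumour wing and 194 and 115 CPM in tumour leg libraries (-0.08 ± 0.25, adjusted p = 0.962). Mmp1, a matrix metalloprotease, stood at 1030 and 720 CPM against 1087 and 753 CPM (-0.07 ± 0.37), and the Ets factor gene Ets21C at 176 and 124 CPM against 168 and 101 CPM (0.16 ± 0.43). In these 3 genes the day 9 libraries of both discs were above the day 11 libraries, and the discs overlapped.

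Ilp8, the peptide that delays metamorphosis, stood at 584 and 959 CPM in tumour wing and 588 and 774 CPM in tumour leg libraries (0.18 ± 0.73, adjusted p = 0.978). Control wing discs held 0.0835 and 0.295 CPM of Ilp8 and control leg discs 0.293 and 14.2 CPM. The JAK/STAT ligand genes upd2 (81.8 and 48.2 CPM against 70.2 and 50.9 CPM) and upd3 (76.6 and 76.0 CPM against 70.1 and 60.2 CPM) differed by 0.10 ± 0.47 and 0.23 ± 0.39. Chinmo, a factor of early larval stages, stood at 210 and 245 CPM in tumour wing and 334 and 295 CPM in tumour leg libraries, apart but not past the test (-0.47 ± 0.34, adjusted p = 0.67). A p that misses the threshold does not show that the levels are equal.

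**Figure D2:**
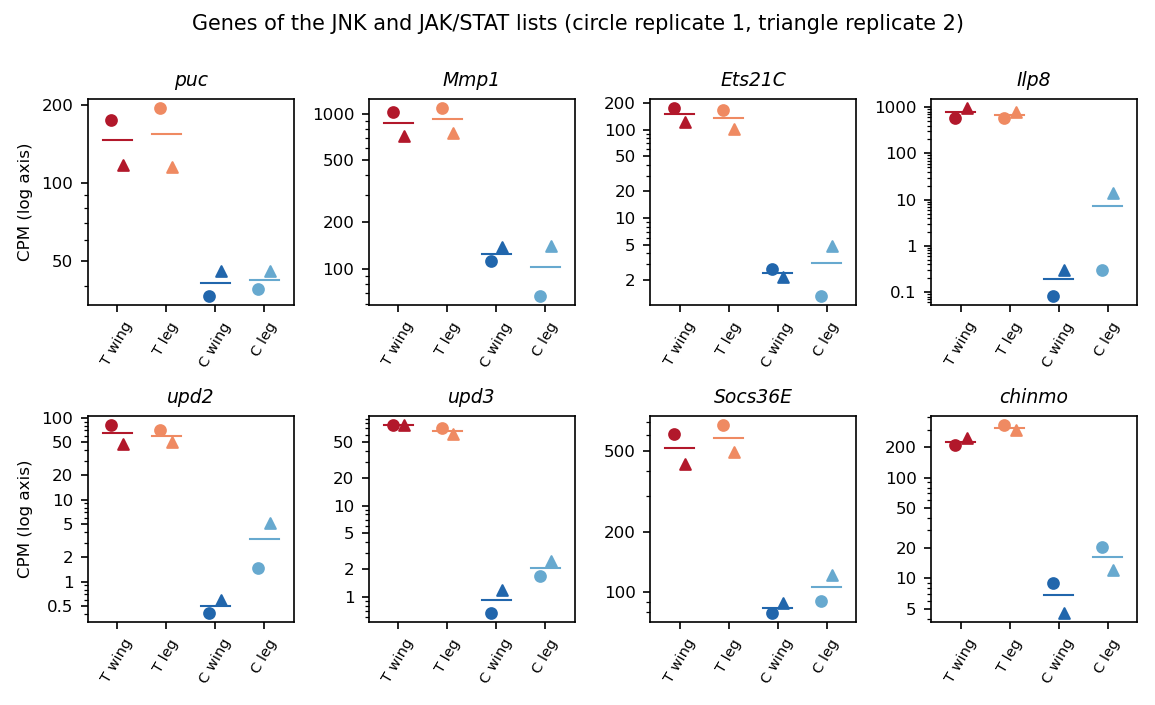
Levels of puc, Mmp1, Ets21C, Ilp8, upd2, upd3, Socs36E and chinmo in CPM on log axes, for tumour wing, tumour leg, control wing and control leg discs from left to right (circle replicate 1, triangle replicate 2, line group mean). None of the 8 genes passed between tumour wing and tumour leg discs. Upd3 stood at 76.0 and 76.6 CPM in tumour wing and 60.2 and 70.1 CPM in tumour leg libraries.

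Cell cycle, Notch, EGFR and ecdysone lists gave 0 or 1 call each, against the same background. Of 13 tested cell cycle genes only CycB, the mitotic cyclin gene, passed, at 266 and 300 CPM in tumour wing and 214 and 226 CPM in tumour leg libraries (0.36 ± 0.08, adjusted p = 0.0212). CycB had adjusted p of 0.245 without the day 11 tumour wing, 0.134 without the day 9 tumour leg and 0.0697 without the day 11 tumour leg library. Of 12 Notch targets none passed, though all 12 log2 differences were positive (0.04 to 0.78). Of 12 EGFR and Ras genes vn alone passed, and of 13 ecdysone and stage genes none did. At an unadjusted p below 0.05 edgeR gave 2 Notch targets and 0 ecdysone genes, and DESeq2 and limma-voom gave 0 adjusted calls in both lists. With the replicate block, 2 Notch targets (E(spl)malpha-BFM at 0.81 ± 0.11 and E(spl)m2-BFM at 0.52 ± 0.13) and 4 ecdysone genes were higher. Among the ecdysone genes were ImpE2 (1.07 ± 0.15, adjusted p = 0.00263) and ImpE3 (1.07 ± 0.16, adjusted p = 0.00498). ImpE2 stood at 150 and 154 CPM in tumour wing and 76.8 and 67.9 CPM in tumour leg libraries, against 6330 and 8177 CPM in control wing and 4719 and 6618 CPM in control leg libraries.

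The lists of matrix, cuticle and leucine-rich repeat receptor genes gave 0 of 11, 1 of 14 and 1 of 11 calls. In the matrix list 2 genes had an unadjusted p below 0.05, and DESeq2 and limma-voom gave 0 adjusted calls. Their calls were neo (1.19 ± 0.21, adjusted p = 0.00492, and 0.059 without the day 11 tumour leg library), a zona pellucida protein gene, and trn. With the replicate block they gave 3 calls each. In the matrix list LanA (-0.46 ± 0.09) and Ndg (-1.41 ± 0.33) were then lower and wb (0.64 ± 0.15) higher. Of 9 tested sensory organ genes 1 was lower, the proneural gene ato (-1.43 ± 0.34, adjusted p = 0.0407). Ato had adjusted p of 0.342, 0.0821 and 0.196 without the day 11 tumour wing, day 9 tumour leg and day 11 tumour leg libraries.

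The wing-leg differences of tumours were set beside those of control discs, which share no library with them. This gave the share of tumour calls that were also called in normal discs. Both contrasts came from the same fit and used its shared estimate of the spread, so their calls were not independent. Of all 96 genes higher in tumour wing discs 40 (41.7%) were called in the same direction between control wing and control leg discs, and of all 143 lower genes 55 (38.5%). Of the 63 genes at least 2-fold higher in tumour wing discs, 37 (58.7%) were called the same way in controls. Of the 79 genes at least 2-fold lower, 47 (59.5%) were. Between control wing and control leg discs 387 of all genes were called (3.94%), 89 higher (0.907%) and 298 lower (3.04%). At 2-fold or more there were 338 (3.44%), 65 higher (0.662%) and 273 lower (2.78%). In the reverse direction, of 65 genes at least 2-fold higher in control wing discs 33 (50.8%) were called the same way in tumours, with a median log2 difference of 1.68 in tumours and 2.02 in controls. Of 273 genes at least 2-fold lower in control wing discs, 51 (18.7%) were called the same way, with medians of -0.10 in tumours and -3.94 in controls.

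Control leg replicate 1 had the highest summed level of neuron markers among the tumour and control wing and leg libraries. Its part in that last share was not tested, since the share was not recomputed without any other library. The summed level of 8 neuron markers was 54.7 and 118 CPM in tumour wing and 57.5 and 54.4 CPM in tumour leg libraries, against 59.7 and 56.0 CPM in control wing and 290 and 81.0 CPM in control leg libraries. The synaptic gene brp stood at 29.3 and 3.86 CPM in the 2 control leg libraries and at 0.353 to 8.08 CPM in the tumour wing, tumour leg and control wing libraries. The photoreceptor factor gene gl stood at 5.72 and 5.35 CPM in control leg discs and at 0.0728 to 0.369 CPM in the tumour wing, tumour leg and control wing libraries. When control genes were selected without control leg replicate 1, a setting chosen after the values were seen, 144 were at least 2-fold lower in control wing discs and 48 of these (33.3%) were called the same way in tumours. Then the medians were -0.78 in tumours and -3.29 in controls. For the higher genes it was 17 of 31 (54.8%).

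**Figure D3:**
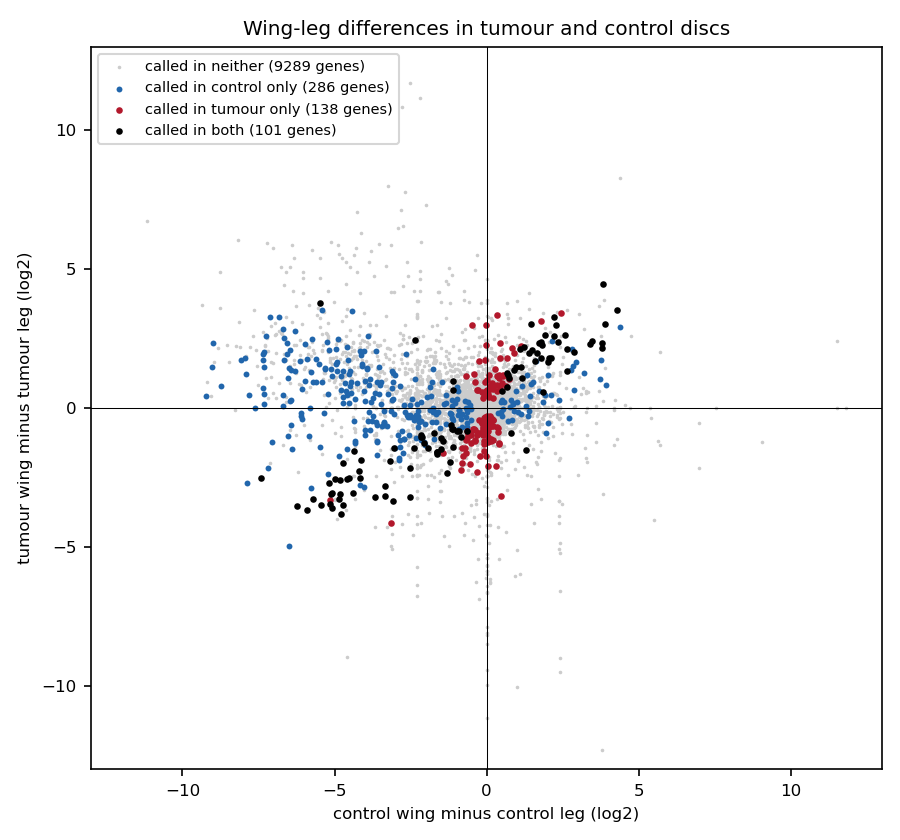
Log2 difference of tumour wing minus tumour leg discs (vertical axis) against control wing minus control leg discs (horizontal axis) for 9814 tested genes. Of these 101 were called in both (black), 138 in tumours only (red) and 286 in controls only (blue). All but 6 of the black points lie in the upper right and lower left.

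The difference between the tumour and the control wing-leg differences was tested directly, and 155 genes passed (1.58%), 115 with a higher (1.17%) and 40 with a lower value (0.408%) in tumours. At 2-fold or more there were 134 (1.37%), 106 higher (1.08%) and 28 lower (0.285%). The balance of directions moved with the model: limma-voom gave 15 higher and 20 lower, limma-voom with a random block 119 and 160, and the replicate block 242 and 207. Of the 115, 92 had been called lower in control wing than in control leg discs, and 45 had at least 2-fold more CPM in control leg replicate 1 than in replicate 2. The share of all tested genes with such a difference between the replicates was not computed. SoxN, Appl, Ank2 and nrv3, genes known from neurons, were among the 115. Of the 8 tested neuron markers nrv3 alone passed for this difference, and 7 did not. Nrv3, a sodium pump subunit gene, stood at 1.59 and 7.14 CPM in tumour wing and 1.59 and 1.02 CPM in tumour leg libraries, against 0.251 and 0.0738 CPM in control wing and 18.5 and 1.35 CPM in control leg libraries. Fewer genes passed without control leg replicate 1, and without either control wing library, either tumour leg library or the day 11 tumour wing library. More passed without the day 9 tumour wing library or control leg replicate 2. The part of these markers in the other calls was not tested.

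Some leg genes differed less strongly in tumours than in controls. TfAP-2 had a log2 wing-leg difference of -1.96 in tumours and -4.73 in controls (difference 2.77 ± 0.38, adjusted p = 0.00303), and this held without any 1 of the 8 libraries. Its level was 71.0 and 66.7 CPM in tumour leg and 235 and 254 CPM in control leg libraries. Lim1 had -3.28 in tumours and -4.84 in controls (1.56 ± 0.29, adjusted p = 0.0157, and 0.101 without control wing replicate 1). H15 (2.24 ± 0.48, adjusted p = 0.0293) and mid (1.27 ± 0.27, adjusted p = 0.0295) went the same way, but H15 did not pass without 5 and mid without 6 of the 8 libraries, with adjusted p of up to 0.121 and 0.158 (both without control wing replicate 1). Disco (0.17 ± 0.35, adjusted p = 0.931) and dac (0.53 ± 0.52, adjusted p = 0.766) did not pass, and of 15 proximodistal leg genes 2 passed, Lim1 and elB.

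Other genes were higher in control wing than in control leg discs with a lower difference in tumours. One was bs, the serum response factor gene of intervein cells, at 33.8 and 35.2 CPM in tumour wing and 29.5 and 29.2 CPM in tumour leg libraries, against 129 and 154 CPM in control wing and 38.2 and 39.3 CPM in control leg libraries. Its log2 difference was 0.23 ± 0.10 in tumours and 1.87 in controls (difference -1.63 ± 0.13, adjusted p = 4.24e-05). Sdb, named for its place downstream of blistered, stood at 233 and 107 CPM in tumour wing and 395 and 235 CPM in tumour leg libraries, against 190 and 182 CPM in control wing and 48.4 and 48.5 CPM in control leg libraries (-2.83 ± 0.41, adjusted p = 0.00394). In tumours the Sdb wing libraries lay below the leg library of the same day (-0.89 ± 0.29, adjusted p = 0.161). Both held without any 1 of the 8 libraries. The zinc finger gene nab (15.1 and 23.4 CPM in tumour wing, 12 and 12.4 CPM in tumour leg, 60.2 and 64.0 CPM in control wing and 10.1 and 6.90 CPM in control leg libraries) had -2.21 ± 0.44 (adjusted p = 0.0247). It did not pass without 5 of the 8 libraries, with adjusted p up to 0.0842 (control wing replicate 1).

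Other differences were seen in tumours where control wing and leg discs were alike. Of the 239 genes, 109 had a control difference within 0.5 on the log2 scale (40 higher and 69 lower in tumour wing discs). The share of all tested genes within that range was not computed. For 29 of the 109 the difference between tumours and controls passed, 10 higher and 19 lower. Tartan (trn), a leucine-rich repeat receptor gene of cell sorting at boundaries, stood at 265 and 278 CPM in tumour wing and 100 and 65.1 CPM in tumour leg libraries, against 201 and 195 CPM in control wing and 192 and 216 CPM in control leg libraries. The tumour leg libraries alone were low (tumour log2 difference 1.72 ± 0.16, adjusted p = 2.49e-05, difference from control 1.76 ± 0.22, adjusted p = 0.00199). The chitin-binding protein gene obst-A had the same pattern, at 177 and 169 CPM in tumour wing and 88.4 and 90.3 CPM in tumour leg libraries, against 190 and 203 CPM in control wing and 232 and 277 CPM in control leg libraries (0.95 ± 0.14, adjusted p = 0.00125, difference 1.33 ± 0.20, adjusted p = 0.00394). Both patterns held without any 1 of the 8 libraries. Bi differed by 0.45 in controls (difference 1.33 ± 0.22, adjusted p = 0.00986). It did not pass without the day 11 tumour leg library or without control wing replicate 1 (adjusted p up to 0.0645). Obst-A, apt, the cytoskeletal genes other than cher, Msr-110, bnb, Lrt and CG1136 were chosen after their values were seen.

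On the leg side, several genes were higher in tumour leg than in tumour wing discs with little difference between control discs. CG6739 stood at 64.3 and 46.7 CPM in tumour wing and 314 and 240 CPM in tumour leg libraries, against 14.4 and 15.4 CPM in control wing and 18.7 and 18.3 CPM in control leg libraries. It was 4.99-fold lower in tumour wing discs (-2.32 ± 0.28, adjusted p = 0.000326). Apt, a transcription factor gene, stood at 98.2 and 106 CPM in tumour wing and 238 and 261 CPM in tumour leg libraries, against 19.4 to 23.6 CPM in control wing and 21.8 to 24.1 CPM in control leg libraries (-1.29 ± 0.18, adjusted p = 0.000858). Dpr16, an immunoglobulin surface protein gene, stood at 15.6 and 7.50 CPM against 55.8 and 41.4 CPM (-2.07 ± 0.29, adjusted p = 0.00081). These 3 calls held without any 1 of the 4 libraries. The difference from control passed for all 3 (adjusted p = 0.0247, 0.0318 and 0.0107), but only dpr16 held without any 1 of the 8 libraries. CG6739 did not pass without 5 of them (up to 0.108, without the day 11 tumour wing library) and apt without any 1 of the 8 (up to 0.16, without control wing replicate 1).

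Several single genes with products in the actin cytoskeleton, no list of which was tested, were lower in tumour wing discs. The filamin gene cher stood at 889 and 721 CPM in tumour wing and 1540 and 1498 CPM in tumour leg libraries, against 349 and 311 CPM in control wing and 385 and 416 CPM in control leg libraries (-0.92 ± 0.13, adjusted p = 0.00106), and this call held without any 1 library. The cytoplasmic actin gene Act5C stood at 7582 and 7318 CPM against 10141 and 10036 CPM (-0.44 ± 0.08, adjusted p = 0.0068). Act42A stood at 1714 and 1408 CPM against 2539 and 2378 CPM (-0.66 ± 0.13, adjusted p = 0.0117). Reads that fit both of these near-identical actin genes would align to several places and be left out. The level of each is therefore uncertain. Smaller differences were found for the genes of capping protein (cpa, -0.33 ± 0.06, adjusted p = 0.0107), the Arp2/3 subunit Arpc1 (-0.55 ± 0.11, adjusted p = 0.0146), a myosin light chain (Mlc-c, -0.34 ± 0.08, adjusted p = 0.0407) and paxillin (Pax, -0.76 ± 0.17, adjusted p = 0.0228).

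Except for cher, these calls ended without single libraries. Without the day 11 tumour wing library the adjusted p was 0.0818 for Act5C, 0.17 for Act42A, 0.153 for cpa, 0.205 for Arpc1, 0.304 for Mlc-c and 0.261 for Pax. Without the day 9 tumour leg library it was 0.072 for Act42A, 0.071 for cpa, 0.0897 for Arpc1, 0.205 for Mlc-c and 0.154 for Pax. Without the day 11 tumour leg library it was 0.0603 for Act5C, 0.0598 for cpa and 0.0929 for Mlc-c, and without the day 9 tumour wing library 0.0544 for Mlc-c. The difference from control passed for Act5C (-0.54 ± 0.11, adjusted p = 0.0283), Act42A and cpa, each of which did not pass without 6 of the 8 libraries, with adjusted p of up to 0.136 and 0.144 (without control wing replicate 1) and 0.195 (without control leg replicate 1).

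**Figure D4:**
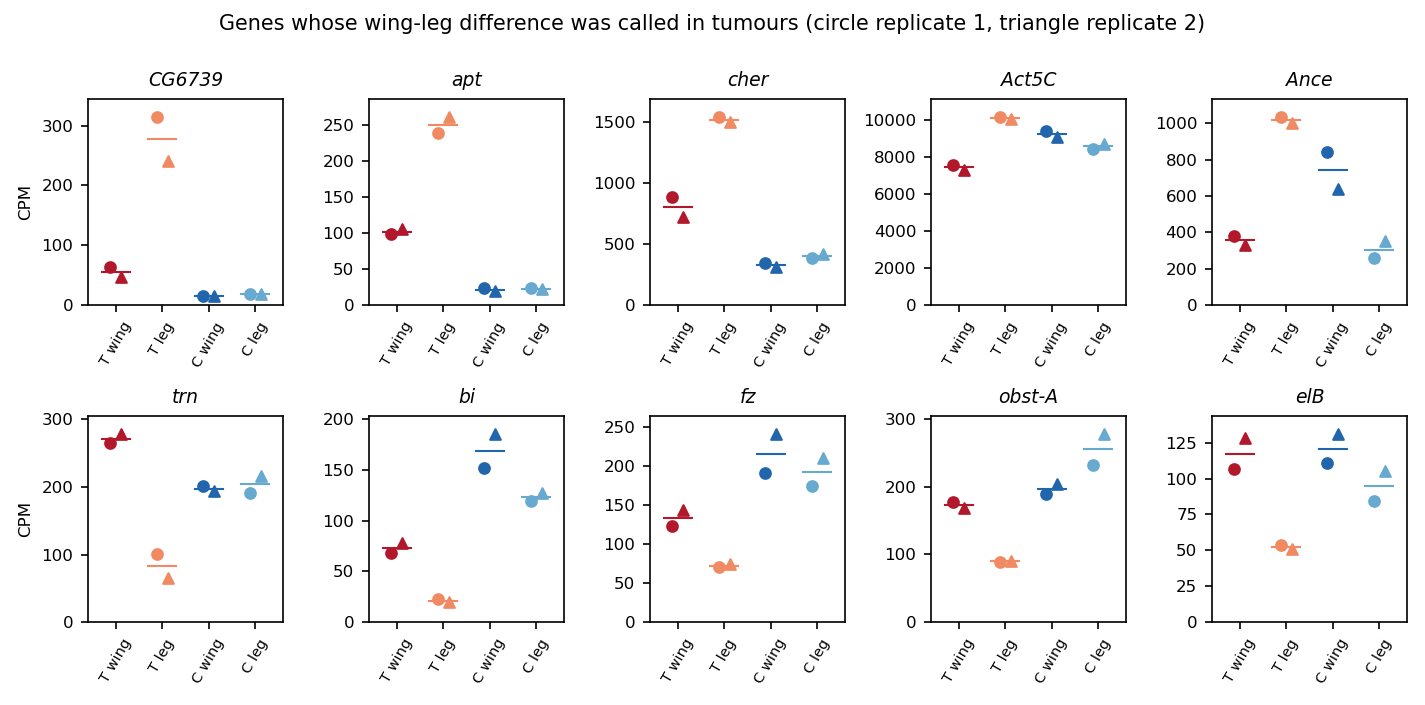
Levels in CPM (linear axes from 0) of 10 genes called between tumour wing and tumour leg discs, for tumour wing, tumour leg, control wing and control leg discs from left to right (circle replicate 1, triangle replicate 2, line group mean). In the upper row the tumour leg libraries are the highest of the 4 groups, as for CG6739 at 240 and 314 CPM, and in the lower row they are the lowest, as for trn at 65.1 and 100 CPM.

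For 6 genes the direction in tumours was the opposite of a called difference in controls. Ance, a homologue of angiotensin converting enzyme, stood at 383 and 332 CPM in tumour wing and 1034 and 1004 CPM in tumour leg libraries, against 845 and 642 CPM in control wing and 257 and 350 CPM in control leg libraries. Its log2 difference was -1.51 ± 0.28 in tumours (adjusted p = 0.00734, and 0.101 without the day 11 tumour wing library) and 1.29 in controls (adjusted p = 0.0145). The difference was -2.80 ± 0.39 (adjusted p = 0.00392) and held without any 1 of the 8 libraries. Msr-110 went the same way (-0.89 ± 0.18 in tumours, 0.79 in controls, difference -1.69 ± 0.25, adjusted p = 0.00394). Bnb (0.96 ± 0.23 in tumours, -1.11 in controls), Lrt (0.65 ± 0.16 and -1.10), CG1136 and FBgn0040030 went the other way. The tumour calls of Msr-110, bnb, Lrt and CG1136 ended without single libraries, with adjusted p up to 0.167 (day 11 tumour wing), 0.454 (day 11 tumour wing), 0.309 (day 11 tumour leg) and 0.0687 (day 9 tumour leg).

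Some markers of cells other than the disc epithelium were called between the tumour discs, beside 2.44% of all genes. Of 10 tested myoblast markers, lbl was lower and Ama higher in tumour wing discs. Lbl, a homeobox gene of leg muscle precursors, stood at 5.20 and 2.81 CPM in tumour wing and 26 and 26 CPM in tumour leg libraries (-2.71 ± 0.30, adjusted p = 0.000108). Ama, a secreted immunoglobulin protein gene, stood at 373 and 372 CPM against 143 and 147 CPM (1.36 ± 0.22, adjusted p = 0.00308). The defining myoblast gene twi stood at 10.1 and 10.5 CPM against 8.03 and 11.4 CPM, and the groups overlapped. The glial gene repo was lower, at 0.794 and 1.73 CPM in tumour wing and 3.71 and 8.66 CPM in tumour leg libraries (-2.27 ± 0.36, adjusted p = 0.00228), the only 1 of 7 glial markers. No marker of neurons (8 tested), larval muscle (6), hemocytes (9), fat body (7), salivary gland (6) or of male dosage compensation (3) passed in edgeR, where 0 had an unadjusted p below 0.05, and 0 passed in DESeq2 and limma-voom. With the 4 tumour libraries alone and the replicate block, 2 muscle markers were lower, and 2 fat body markers and 1 neuron marker were higher.

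Summed hemocyte markers were at 467 and 253 CPM in tumour wing and 371 and 386 CPM in tumour leg libraries, and summed fat body markers at 122 and 287 CPM and at 37.5 and 281 CPM. Control wing and leg libraries held 456 to 5354 CPM of the fat body markers. Summed salivary markers were at 0.794 and 23.3 CPM in tumour wing and 0.794 and 1.02 CPM in tumour leg libraries. Control wing libraries held 2.00 and 9.75 CPM of them and control leg libraries 4.26 and 74.1 CPM. Of 7 tracheal markers vvl alone was called, and summed tracheal markers were 5557 and 2427 CPM in tumour wing against 6127 and 2884 CPM in tumour leg libraries. Among the tracheal and FGF genes bnl, the FGF ligand gene, differed most by day, at 351 and 26 CPM in tumour wing and 248 and 12.5 CPM in tumour leg libraries. On each day the wing library was above the leg library (0.53 ± 1.19, adjusted p = 0.938). Of 7 eye markers, eya was higher (1.98 ± 0.40, adjusted p = 0.0141) and oc lower, and the photoreceptor factor gl stood at 0.265 and 0.144 CPM in tumour wing and 0.0882 and 0.0728 CPM in tumour leg libraries. Eya had adjusted p of 0.0702 without the day 9 tumour wing library, 0.0741 without the day 9 and 0.132 without the day 11 tumour leg library.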

How the data were processed

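The authors deposited raw counts of reads for each gene. TopHat2, HTSeq and dm3 are named in the submitters' processing notes, while no version, annotation or strand setting is given in the sources used here. The 5 summary lines were left out of library sizes, and of 15348 genes 14639 had a symbol in the reference (Release 6), which gave names and the order of neighbouring genes, and no coordinates are printed. Without a stated strand setting, reads of overlapping genes cannot be told apart. Members, gene lists and tests were chosen with earlier results of these data known. The lists held 307 entries, of which 285 were matched (278 genes, 271 tested). The others are not analysed here.

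A gene was tested where 2 or more libraries reached 1 CPM (9814 genes). One mean for each of 15 groups was fitted to all 27 libraries (TMM scaling, 12 residual degrees of freedom, which share 1 estimate of the spread), and each contrast was put to the robust quasi-likelihood test of edgeR with Benjamini-Hochberg adjustment over all tested genes at 0.05. The contrasts were tumour wing minus tumour leg, control wing minus control leg, and their difference. The SE is the absolute log2 difference divided by the square root of F. Day differences used a pseudocount of 0.5 CPM. The code was checked on simulated counts.

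Named genes are the list members, the 15 largest differences on each side of the tumour comparison among called genes whose higher group averaged 10 CPM or more and whose libraries did not overlap, and 10 on each side of the difference between tumours and controls. Others are said to have been chosen after their values were seen.

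The labels give tumour replicate 1 as day 9 and replicate 2 as day 11 in both discs, so the numbers pair the tumour samples. Deviations from the group means of same-numbered wing and leg libraries correlated at 0.429 over genes in tumours. In controls, all of day 5, they correlated at -0.086. The same deviations of tumour eye-antennal libraries, also of day 9 and day 11, correlated at 0.074 with wing and 0.051 with leg libraries. The replicates are independent dissections per the labels, 2 a group.

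Other settings tried were no count filter, a 5 CPM filter, size factors of DESeq2, its Wald test, limma-voom without and with the dissection as a random block (correlation 0.442), a replicate block, the compared libraries alone, control and tumour libraries alone, leaving out the 8 libraries of a second form of file name, and leaving out each library. Fits used DESeq2 1.42.0, limma 3.58.1 and edgeR 4.0.16 in R 4.3.3. Tables and plots used numpy 2.4.6, matplotlib 3.10.9 and pandas 2.3.3 in Python 3.11.15. Each comparison rests on 4 to 8 libraries of 12.1 to 16.01 M assigned reads.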

Additional observations from a re-analysis of the deposited data

Results flagged for a closer look

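For 47 of the genes named by the rule or in the text, the wing-leg difference itself differed between tumours and controls by edgeR's test, 15 with a lower and 32 with a higher value in tumours. Values are log2 differences, tumour minus control. The lower ones were Sdb (-2.83), Ance (-2.80), Trim9 (-2.57), dpr16 (-2.37), nab (-2.21), Phk-3 (-2.12), CG6739 (-2.01), Jheh1 (-1.73), Msr-110 (-1.69), bs (-1.63), LamC (-1.24), apt (-1.20), Act42A (-0.87), Act5C (-0.54) and cpa (-0.39). Among the higher ones, genes of disc patterning and surface proteins were fz (0.72), elB (0.81), ara (1.01), mid (1.27), obst-A (1.33), bi (1.33), Lim1 (1.56), Wnt6 (1.74), Lrt (1.75), trn (1.76), oc (2.03), bnb (2.08), H15 (2.24), mey (2.41), Sox21b (2.44), lbl (2.47) and TfAP-2 (2.77).

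The largest values were those of FBgn0040030 (4.81), CG13928 (5.34), qtc (5.36), loaf (5.37), SoxN (5.58), OtopLa (5.82), cato (5.92), Appl (5.94), Ank2 (6.21), SP2353 (6.52), sbm (6.71), nrv3 (7.65), CG34377 (8.94), CG1136 (9.26) and kek3 (9.54). Ank2 stood at 70.7 CPM in control leg replicate 1 and 6.70 CPM in replicate 2. Kek3 was at 0 in both control wing libraries and cato at 0 in both tumour leg libraries, so their fitted values depend on the prior count.

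Of the 47, 12 passed without any 1 of the 8 libraries (Sdb, Ance, dpr16, Msr-110, bs, obst-A, Lrt, trn, bnb, TfAP-2, FBgn0040030 and CG1136), and 9 did not pass with the replicate block.

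Lines aligned to several places, which no comparison used, averaged 68.5% in tumour wing and 61.3% in tumour leg libraries, against 16.4% in control wing and 19.6% in control leg libraries.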

How the results depend on the processing

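Of 99 called genes named by the rule or in the text, 45 passed without any 1 of the 4 tumour libraries, and 2 (dve and Tig) did not pass with the replicate block; Tig was chosen after its values were seen. No called value changed sign in an alternative, but the balance of directions moved. Between tumour wing and tumour leg discs (96 higher, 143 lower) it was 108 and 100 without the day 9 and 32 and 83 without the day 11 tumour leg library. Between control discs (89 and 298) it was 89 and 127 with limma-voom and 212 and 234 with its random block. For the difference (115 and 40) it was 15 and 20, and 119 and 160. Calls between tumour wing and tumour leg discs (239) numbered 425 with DESeq2's Wald test, 713 with limma-voom and the dissection as a random block, 692 with the replicate block, 4 in the 4 libraries alone, 801 there with the block, and 148 in control and tumour libraries alone, and 107 to 243 with 1 library left out. List members (49) numbered 76 with the block, 1 in the libraries alone, 90 there with the block, and 26 to 44 with 1 library left out. Calls between control wing and control leg discs (387) numbered 686 with DESeq2's Wald test, 216 with limma-voom, 607 with the block, 218 alone and 193 in control and tumour libraries, and 156 to 512 with 1 library left out. Calls of the difference (155) numbered 559 with DESeq2's Wald test, 35 with limma-voom, 279 with its random block, 449 with the replicate block, 25 in control and tumour libraries, and 30 to 356 with 1 library left out. In the 8 libraries alone edgeR gave 0, with 878 of 8817 genes at an unadjusted p below 0.05. The share of control-selected genes called the same way (24.85%) was 37.14% without control leg replicate 1, a setting chosen after the values were seen. The replicate block ended no other call among the named genes between tumour wing and tumour leg discs. The cause of these shifts was not tested. Low genes such as Wnt10 or gsb-n are limited by depth.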
